A study of Mus musculus with 4 samples.

Results

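The potassium channel genes described here are all genes of the count matrix whose symbol starts with Kcn, which gave 99 of 32285 genes. Of these, 79 had at least 50 unique molecular identifiers (UMIs, counts of captured molecules) and 20 had fewer. Visium spatial transcriptomes were made from fresh-frozen coronal sections of the olfactory bulb of 1 control and 1 mutant mouse, both 5 months old at sacrifice. In the mutant, a transgenic soluble form of VEGFR1, under a tetracycline-regulated camk2a-tTA driver acting in the brain, was used to block vascular endothelial growth factor at e13.5, an embryonic stage, and the bulb of that mouse had degenerated. The sources used here do not say whether the control mouse carried the driver or the transgene. The control mouse gave 2 sections on the first of its capture areas and 1 on the second, while both areas of the mutant mouse carried 2 sections each. The matrix pools these areas as libraries 1 to 4, and no label ties a library number to a mouse. Every value below is therefore given per library, and no value stands for the control or the mutant mouse.

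Potassium channels let potassium ions leave or enter cells along their gradient, and so set the resting potential, end action potentials and shape how often a neuron fires. Voltage-gated (Kv), calcium- or sodium-activated, inwardly rectifying (Kir) and 2-pore domain (K2P) channels form the pore, and accessory subunits alter their gating and their traffic to the membrane. In the olfactory bulb, mitral and tufted cells relay odour input, granule and periglomerular interneurons inhibit them, and astrocytes clear potassium from the extracellular space through Kir channels.

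Spots with at least 500 UMIs were kept, 4616 of 4713, and libraries 1 to 4 held 13304973, 5223890, 12533691 and 9533952 UMIs. Levels are in CPM, the UMIs of a gene scaled by all UMIs of the kept spots of a library or region, and ratios carry exact 95% intervals that cover counting error only. Each animal condition has 1 mouse and the libraries are not replicates, so means, SDs and p-values are left out. Any pair of libraries shared between 62 and 651 barcodes, the same barcodes being printed on every capture area. A pair differed by a median of 0.10 to 0.58 log2 units over the 45 potassium channel genes with at least 500 UMIs, and by 0.08 to 0.21 over all genes of that depth. Defining markers of the bulb were present in every library, with the 8 mitral and tufted cell markers summing to 4387, 3812, 2808 and 2727 CPM. Markers of forebrain excitatory neurons, a type that lies outside the bulb, summed to 1352, 1222, 2682 and 2759 CPM. A spot can hold several cells, and fewer cells of a type and less RNA per cell cannot be told apart.

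The 99 genes held 134193 UMIs, 0.331% of all, at 3633, 3753, 2988 and 3020 CPM in libraries 1 to 4. The total was thus lower in libraries 3 and 4 than in libraries 1 and 2. Of the 99, 45 had at least 500 UMIs, 16 had 200 to 499, 18 had 50 to 199, 14 had 1 to 49 and 6 had none (Kcna7, Kcna10, Kcng3, Kcnk16, Kcnk18 and Kcnmb4os1). Taking 3 UMIs as the limit that a count of 0 allows, such a gene could have had up to 0.225 to 0.574 CPM, depending on the library. Around the 50 UMI minimum, Kcnj15 lay just inside with 52 UMIs, and Kcnj6 and Kcnj5, which encode the G protein-gated channels GIRK2 and GIRK4, lay just outside with 41 and 40. Kcna1, which encodes the axonal channel Kv1.1, had 77 UMIs in all and Kcna3 had 2. UMIs come from the 3' ends of transcripts and depend on the annotation there, so levels are compared between libraries and regions and not between genes.

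To show the sequence in front of the genes that stood highest in a region (below), the promoters of 5 of them are printed, chosen after their values were seen. They come from RefSeq on GRCm38.p6, a build other than the GRCm39 named in the submitters' processing notes, which the matrix itself does not state, and run from 250 bases before the annotated start to 50 bases after it, in the direction of transcription. Capitals mark GC boxes (GGGCGG, or CCGCCC on the other strand) and E-boxes (CANNTG, which reads the same on both strands). Kcnj10 (ENSMUSG00000044708) encodes the glial inward rectifier Kir4.1, Kcnk15 (ENSMUSG00000035238) a K2P channel of the TASK group, Kcnk4 (ENSMUSG00000024957) the mechanically gated K2P channel TRAAK, Kcnt2 (ENSMUSG00000052726) the sodium-activated channel Slick and Kcnn4 (ENSMUSG00000054342) the intermediate-conductance calcium-activated channel of immune and epithelial cells.
Kcnj10: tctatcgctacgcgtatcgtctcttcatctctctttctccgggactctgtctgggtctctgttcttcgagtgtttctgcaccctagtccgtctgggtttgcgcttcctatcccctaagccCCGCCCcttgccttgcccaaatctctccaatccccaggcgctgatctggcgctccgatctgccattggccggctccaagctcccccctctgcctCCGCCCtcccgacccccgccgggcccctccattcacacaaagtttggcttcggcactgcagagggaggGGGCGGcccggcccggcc
Kcnk15: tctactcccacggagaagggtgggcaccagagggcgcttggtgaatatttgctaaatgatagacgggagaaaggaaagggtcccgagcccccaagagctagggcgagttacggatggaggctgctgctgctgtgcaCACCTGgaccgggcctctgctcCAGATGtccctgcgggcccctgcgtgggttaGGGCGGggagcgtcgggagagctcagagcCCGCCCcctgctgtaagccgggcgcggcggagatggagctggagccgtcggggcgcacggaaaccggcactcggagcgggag
Kcnk4: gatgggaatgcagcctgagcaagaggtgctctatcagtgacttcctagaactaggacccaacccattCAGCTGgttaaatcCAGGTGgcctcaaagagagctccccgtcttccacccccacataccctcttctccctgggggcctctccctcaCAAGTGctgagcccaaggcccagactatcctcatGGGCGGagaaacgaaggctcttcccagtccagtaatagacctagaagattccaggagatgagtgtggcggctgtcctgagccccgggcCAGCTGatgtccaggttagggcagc
Kcnt2: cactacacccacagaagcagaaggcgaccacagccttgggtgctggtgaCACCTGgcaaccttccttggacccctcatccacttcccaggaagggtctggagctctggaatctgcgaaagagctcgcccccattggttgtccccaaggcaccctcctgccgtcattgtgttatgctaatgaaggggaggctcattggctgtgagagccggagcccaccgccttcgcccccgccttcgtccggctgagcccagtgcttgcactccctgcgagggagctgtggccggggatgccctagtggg
Kcnn4: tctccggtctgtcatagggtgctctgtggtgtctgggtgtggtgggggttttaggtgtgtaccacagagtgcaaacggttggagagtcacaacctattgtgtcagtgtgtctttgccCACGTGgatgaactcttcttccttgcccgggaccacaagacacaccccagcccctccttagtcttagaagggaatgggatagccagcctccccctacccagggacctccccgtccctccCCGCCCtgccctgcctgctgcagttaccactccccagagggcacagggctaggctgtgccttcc
Kcnj10 lies at chr1:172340960-172341259 on the plus strand, Kcnk15 at chr2:163853500-163853799 on the plus strand, Kcnk4 at chr19:6934466-6934765 on the minus strand, Kcnt2 at chr1:140245468-140245767 on the plus strand and Kcnn4 at chr7:24370013-24370312 on the plus strand. The Kcnj10 promoter holds 3 GC boxes and no E-box, Kcnk15 holds 2 of each, Kcnk4 holds 1 GC box and 4 E-boxes, Kcnt2 holds 1 E-box and no GC box, and Kcnn4 holds 1 of each. The table has 97 promoters of 72 potassium channel genes. A GC box stands in 47.4% of them and in 35.7% of all 32851 promoters, an E-box in 73.2% and 72.3%, and a TATA box (TATAAA, either strand) in 5.15% and 13.6%. A cAMP response element (TGACGTCA) was found in 0% and 1.79%, and part of a site of the repressor REST (TTCAGCACC, either strand) in 1.03% and 0.371%. The channel shares of these last motifs stand for 0 and 1 of the 97 promoters. Median GC content was 58.0% over the channel promoters and 52.7% over all. A match is a description of the letters and not a bound site.

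Between libraries, 12 of the 45 potassium channel genes that reached 500 UMIs, and 3 or more in every library, differed by over 2-fold from lowest to highest (26.7%), against 7.85% of the 9852 genes tested. The median ratio of highest to lowest library was 1.60 over the 45 genes and 1.24 over all genes tested. For each of the 45 the interval of the ratio lay above 1, but it is made for a fixed pair of libraries and is too narrow for a highest and a lowest picked by their values, so lower bounds near 1 show no difference beyond counting error. Of the 12, 4 were highest in library 1, 1 in library 2, 3 in library 3 and 4 in library 4. The widest were Kcng1 and Kcnv1, genes of silent Kv subunits, and the K2P gene Kcnk15. The narrowest included another K2P gene, Kcnk1 (TWIK1), with a ratio of 1.13 (1.03 to 1.23) and Kcnma1 (the BK channel) with 1.15 (1.01 to 1.31).

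Among the pore-forming Kv1 genes, Kcna2, which encodes the axonal channel Kv1.2 and held the most UMIs of the subfamily, was measured at 179, 172, 109 and 115 CPM, a ratio of 1.65 (1.54 to 1.76). Kcna6, which encodes Kv1.6, ran the other way at 16.2, 17.0, 41.9 and 50.03 CPM, a ratio of 3.08 (2.62 to 3.64). Within 1 subfamily, then, Kcna2 was lower and Kcna6 higher in libraries 3 and 4 than in libraries 1 and 2, and their intervals do not overlap between these libraries. Among Kv3 genes, whose channels let neurons fire at high rates, Kcnc1 and Kcnc4 ran in opposite directions. Kcnc1 (Kv3.1) stood at 222, 221, 123 and 117 CPM, a ratio of 1.90 (1.77 to 2.03), with libraries 3 and 4 low. Kcnc4 (Kv3.4) stood at 26.4, 24.9, 44.8 and 55.2 CPM, a ratio of 2.22 (1.83 to 2.71), with libraries 3 and 4 high. Kcnd2, which encodes the A-type channel Kv4.2, was measured at 109.7, 113, 89.8 and 77.7 CPM, a ratio of 1.46 (1.31 to 1.63).

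The Kv7 genes carry the M-current, which holds back repetitive firing. Of these, Kcnq3 was measured at 23.0, 21.1, 37.9 and 39.6 CPM, a ratio of 1.88 (1.52 to 2.35), and Kcnq5 at 12.03, 16.1, 32.9 and 32.0 CPM, a ratio of 2.73 (2.27 to 3.30). Libraries 3 and 4 were thus high for Kcnq3 and Kcnq5. In the EAG, ERG and ELK group, Kcnh2, which encodes ERG1 and also shapes the repolarising current of the heart, stood at 125, 123, 59.0 and 49.5 CPM, a ratio of 2.53 (2.28 to 2.80). Kcnh1 (EAG1) was high where Kcnh2 was low, at 10.5, 12.6, 25.7 and 28.0 CPM, a ratio of 2.66 (2.16 to 3.29). Kcnh3 (ELK2), with the most UMIs of the group, was lower in library 1, at 76.4 CPM, than in libraries 2 to 4, at 108, 107 and 108 CPM.

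Silent Kv subunits carry no current alone and join Kv2 channels. Kcng1 (Kv6.1) stood at 4.28, 2.49, 20.8 and 19.2 CPM, a ratio of 8.37 (4.81 to 15.9) with 13 UMIs in its lowest library. Kcnv1 (Kv8.1) was measured at 5.56, 4.02, 30.9 and 30.6 CPM, a ratio of 7.68 (4.95 to 12.6). Both were several-fold higher in libraries 3 and 4 than in libraries 1 and 2, with no overlap of intervals. Kcnf1 (Kv5.1), the silent subunit gene with the most UMIs, stood at 134, 149.5, 105 and 96.7 CPM, a ratio of 1.55 (1.40 to 1.70).

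Among calcium- and sodium-activated channels, none of the 4 genes with at least 500 UMIs passed 2-fold. Kcnt1 (Slack) held the most UMIs and stood at 85.2, 101, 93.5 and 98.4 CPM, a ratio of 1.19 (1.07 to 1.32). Its relative Kcnt2 (Slick), with 226 UMIs in all, was measured at 2.63, 2.87, 7.66 and 8.39 CPM, a ratio of 3.19 (2.12 to 4.89). Kcnn4 (292 UMIs) was at 4.43, 4.02, 10.5 and 8.39 CPM, a ratio of 2.62 (1.65 to 4.37). For the last 2 genes libraries 3 and 4 were the higher ones, at counts of 15 to 132 UMIs per library.

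K2P channels give the background leak of potassium. Kcnk1 had the most UMIs and was nearly level across libraries, at 93.1, 94.2, 85.5 and 96.4 CPM. Kcnk4 (223 UMIs) had the widest ratio of all genes named here with at least 3 UMIs in each library, 8.95 (3.97 to 25.0), at 1.80, 1.15, 7.58 and 10.3 CPM with 6 UMIs in library 2. Kcnk15 ran in the opposite direction, at 35.9, 30.4, 12.05 and 8.39 CPM, a ratio of 4.27 (3.37 to 5.48).

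**Figure D1:**
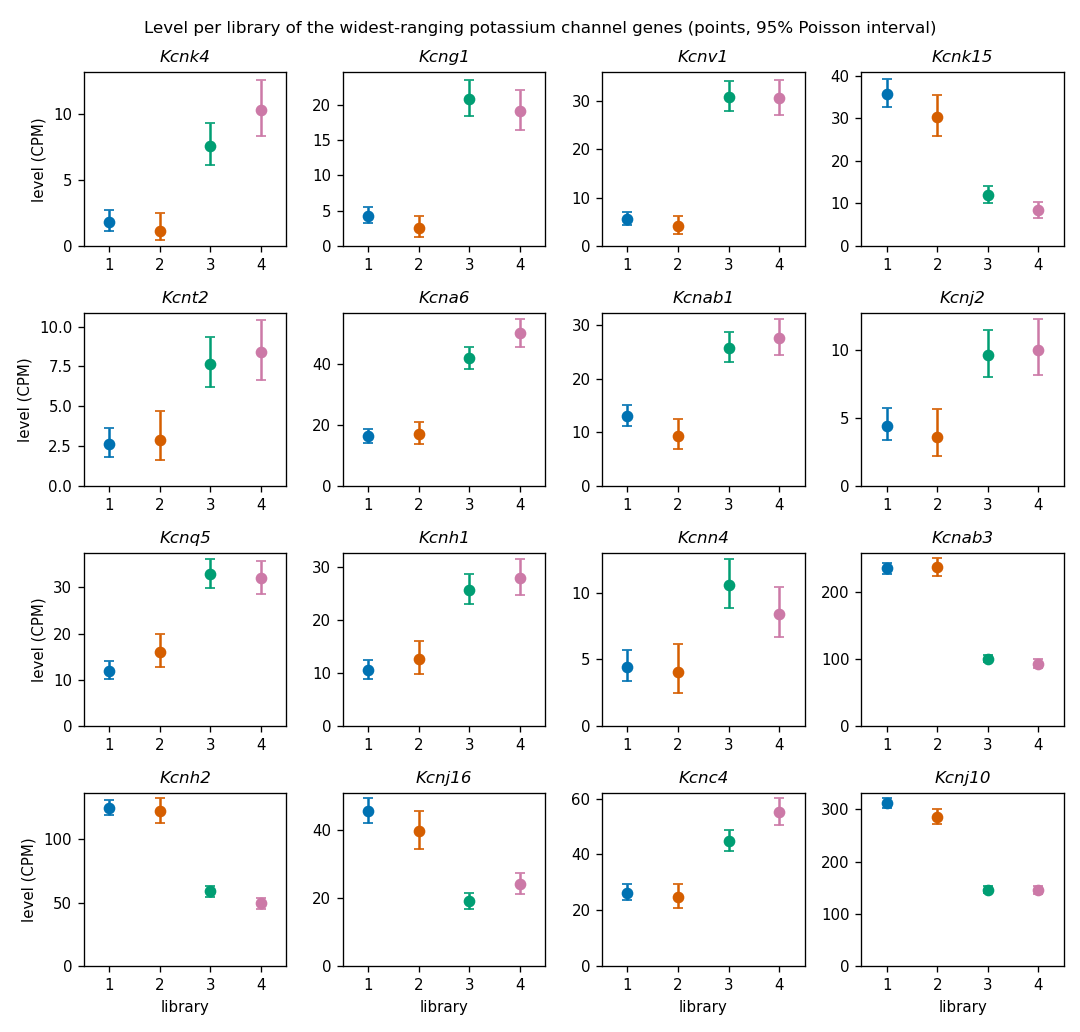
Level (CPM, linear axis from 0) of the 15 potassium channel genes whose libraries lay farthest apart, and of Kcnj10, in each of the 4 libraries. Points are library values and bars are exact 95% Poisson intervals for counting error. Kcnk15, Kcnab3, Kcnh2, Kcnj16 and Kcnj10 are lower in libraries 3 and 4 than in libraries 1 and 2, and the other 11 are higher there.

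Among inward rectifiers, Kcnj10 held the most UMIs of any potassium channel gene, 8888 in all. Its levels were 313, 286, 147 and 146 CPM, with intervals of 303 to 322, 272 to 301, 139.9 to 153 and 139 to 154, a ratio of 2.14 (2.01 to 2.27). Kcnj16, whose product Kir5.1 assembles with Kir4.1, was measured at 45.4, 39.6, 19.0 and 24.1 CPM, a ratio of 2.39 (2.05 to 2.79). Both genes were lower in libraries 3 and 4 with no overlap of intervals between these and libraries 1 and 2. The 9 astrocyte markers together did not share that order, since they summed to 2778, 2661, 3246 and 3453 CPM, highest in library 4. Slc1a2 (the glutamate transporter GLT-1) stood at 697, 692, 813 and 923 CPM, Aldoc at 989, 921, 941 and 1007 CPM and Gfap, which rises in reactive astrocytes, at 106, 83.7, 360.5 and 409 CPM. Kcnj2 (Kir2.1; 295 UMIs) was higher in libraries 3 and 4, at 4.43, 3.64, 9.65 and 10.1 CPM, a ratio of 2.77 (1.68 to 4.80). The GIRK genes stayed under 2-fold, Kcnj3 with a ratio of 1.36 (1.22 to 1.51) and Kcnj9 with 1.26 (1.13 to 1.41).

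Only 2 regions held at least 30 spots of every library (regions are defined below), but the Mbp region was unlike between libraries, with 1, 0, 8 and 8 of the 8 oligodendrocyte markers higher there than in the rest of libraries 1 to 4. In the Mbp region Kcnj10 stood at 514, 471, 219 and 290.1 CPM, a ratio of 2.35 (1.80 to 3.11). In the Necab2 region it stood at 131, 103, 90.04 and 50.5 CPM, a ratio of 2.59 (1.58 to 4.31). Libraries 3 and 4 were below libraries 1 and 2 in both regions on 26 to 511 UMIs, but in the Necab2 region the intervals of libraries 2 and 3 overlapped. In the spots of the Mbp and Necab2 regions Slc1a2 differed by 1.33-fold (1.13 to 1.57) and 1.07-fold (0.859 to 1.33), Aldoc by 1.05-fold (0.941 to 1.17) and 1.58-fold (1.31 to 1.92), and Slc1a3 (the glutamate transporter GLAST) by 1.22-fold (0.9998 to 1.48) and 2.396-fold (1.81 to 3.24). Gfap differed by 4.84-fold (3.68 to 6.39) and 17.6-fold (6.75 to 65.5), the last against 4 UMIs in library 2, with libraries 3 and 4 high. The 8 reactive glia markers summed to 205, 193, 2144 and 1759 CPM over all spots, and the part of these cells in the difference of Kcnj10 was not tested.

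**Figure D2:**
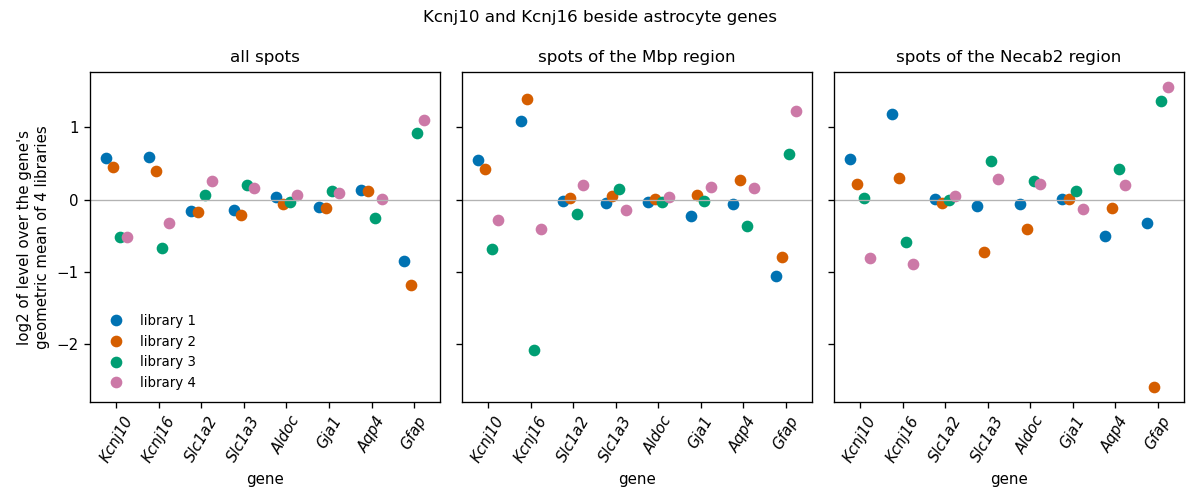
Level of Kcnj10, Kcnj16 and 6 astrocyte genes in each library, as log2 of the level over the geometric mean of that gene over the 4 libraries, in all spots (left) and in the spots of the Mbp and Necab2 regions (middle and right). Each point is 1 library, drawn without an interval. Kcnj16 rests on 63, 24, 2 and 7 UMIs in the Mbp region of libraries 1 to 4. In the Necab2 region it rests on 12, 5, 10 and 5 UMIs. In all 3 panels Kcnj10 is lower in libraries 3 and 4 than in libraries 1 and 2, Gfap is higher, and Slc1a2 lies within 1.33-fold.

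Of the accessory subunits, the Kv1 beta subunit genes summed to 430.0, 426, 256 and 281 CPM. Kcnab3 stood at 235, 236, 100.3 and 93.0 CPM, a ratio of 2.54 (2.33 to 2.77), with libraries 3 and 4 low. Kcnab1 ran the other way at 13.1, 9.38, 25.8 and 27.6 CPM, a ratio of 2.94 (2.16 to 4.08). Kcnab2, with the most UMIs of these, was lowest in library 3 at 130.3 CPM and highest in library 1 at 182 CPM. Kcnip2, which encodes the Kv4 partner KChIP2, stood at 188, 190.1, 142.5 and 138 CPM, a ratio of 1.38 (1.27 to 1.498). Kcnmb4, which encodes the BK subunit of neurons, stood at 43.2, 51.3, 78.3 and 84.1 CPM, a ratio of 1.95 (1.75 to 2.17), while Kcnma1, whose channel it joins, was nearly level. Kcnma1 UMIs per Kcnmb4 UMI were therefore 1.62, 1.41, 0.818 and 0.751 in libraries 1 to 4. Of the Kcne genes, whose small proteins join Kv7 and other channels, Kcne1l had the most UMIs and stood at 9.55, 11.1, 8.22 and 8.08 CPM, a ratio of 1.37 (0.961 to 1.96) that counting error alone could give.

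Of the 5 RNAs named for a neighbouring channel gene, Kcnq1ot1 had the most UMIs and stood at 4.66, 7.85, 7.10 and 6.71 CPM, a ratio of 1.68 (1.11 to 2.54). Kcnmb4os2 was counted with 30, 1, 84 and 86 UMIs in libraries 1 to 4, a ratio of 47.1 (8.24 to 1883) against the 1 UMI of library 2. The sources used here do not say whether counting used strand, so reads of Kcnmb4 and of this RNA cannot be told apart with certainty.

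Regions were drawn by clustering the spots of all libraries on 2000 variable genes, with all Kcn genes and all marker genes kept out, so that the grouping did not use their levels. Each of the 12 regions carries the name of its leading gene by fold over other spots, which stands for no cell type. A gene was called raised where its level in a region was over 2-fold above the rest of the library, wherever a library held 30 or more of its spots, and in 2 or more libraries, which 11 regions allowed. By this rule 19 of 45 potassium channel genes (42.2%) were raised in some region, against 12.6% of the 8813 genes of that depth that did not draw the regions and 15.7% of all 9860 genes of that depth. The first share leaves out genes chosen for varying between spots, a choice from which all Kcn genes were kept, so both are given. Raised in some region were 3 of 4 EAG, ERG and ELK genes and 3 of 4 silent subunit genes. None of the 4 calcium- and sodium-activated and neither of the 2 Kv4 genes was.

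**Figure D3:**
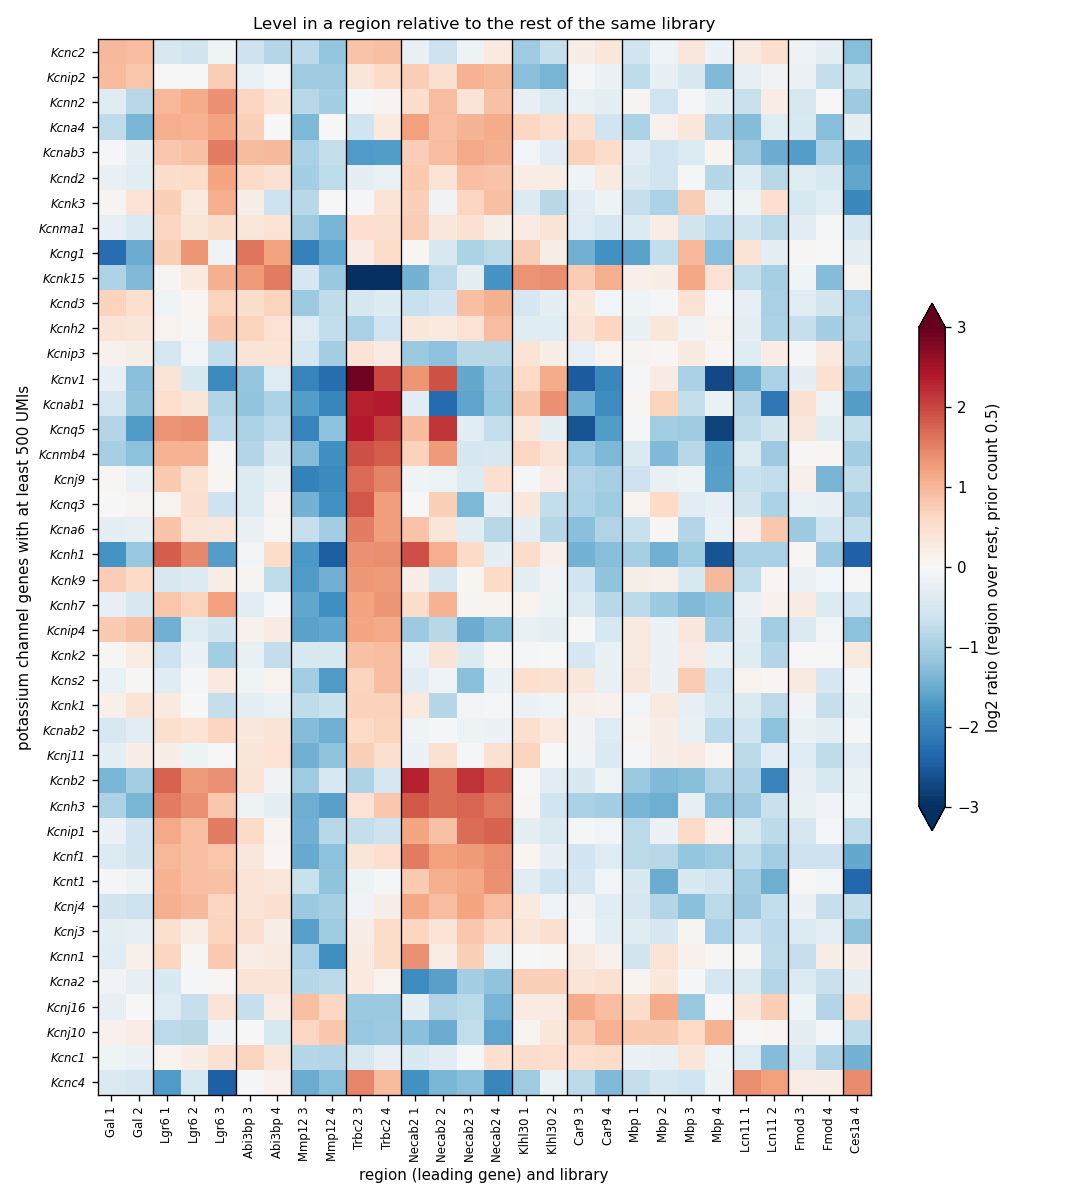
Level of 42 of the 45 potassium channel genes with at least 500 UMIs in a region relative to the rest of the same library (log2 ratio, prior count 0.5, colours end at -3 and 3), for the 28 combinations of region and library with at least 30 spots. Rows are ordered by the region with the highest mean and columns are grouped by region. Red blocks stand in the Trbc2 columns from Kcnv1 to Kcnip4 and in the Lgr6 and Necab2 columns from Kcnb2 to Kcnj4, and the Mmp12 columns are blue for most genes and red for Kcnj10 and Kcnj16.

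The Trbc2 region held 216 spots of library 3, 183 of library 4 and 0 of libraries 1 and 2, with a median of 14125 UMIs per spot. Here 11 of 45 potassium channel genes were raised, against 3.95% of the genes that did not draw the regions and 4.12% of all genes of that depth. Kcnv1 stood at 86.0 CPM in library 3 against 11.4 in the rest of it, and at 67.4 against 16.6 in library 4. Kcnq5 stood at 81.7 against 15.6 and 71.6 against 16.9 CPM, and Kcnab1 at 63.4 against 12.5 and 66.2 against 12.9 CPM. These levels were 4.05-fold to 7.52-fold those of the rest of the library, and every interval lay above 3. Kcnmb4 (172 against 45.2 and 175 against 49.5 CPM), Kcnj9, Kcnh1, Kcnk9, Kcna6, Kcnq3, Kcnh7 and Kcnip4 make up the other 8. Of genes with fewer UMIs, Kcnk4 stood at 21.7 against 2.59 and 25.1 against 4.63 CPM and Kcnt2 at 22.3 against 2.48 and 19.8 against 4.05 CPM. Kcnk15 was nearly missing from the region, with 6 UMIs in library 3 and 2 in library 4, and Kcnj10 stood at 78.1 and 79.9 CPM against 171 and 172. The 8 forebrain excitatory neuron markers summed to 6808 and 6589 CPM in the region and to 1227 and 1302 CPM in the rest, with 7 and 6 of 8 higher and none at 0. Their part in these differences was not tested.

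Without the spots of that region, 8 of 45 genes (17.8%) passed 2-fold between libraries, against 6.94% of all genes, an alternative chosen after the data were seen. Of the 12 genes over 2-fold with all spots, 7 also passed without the region (Kcna6, Kcnab3, Kcng1, Kcnh2, Kcnj16, Kcnk15 and Kcnv1). The other 5 did not, and Kcnk3 (TASK1) passed without it only. Kcnab1 moved from a ratio of 2.94 to 1.39 (1.01 to 1.96), Kcnq5 from 2.73 to 1.41 (1.10 to 1.80) and Kcnmb4 from 1.95 to 1.19 (1.02 to 1.37). Without the region Kcnab1 was highest in library 1, at 13.1 CPM, and Kcnmb4 in library 2, at 51.3 CPM. Kcnq5 was then highest in library 4, at 16.9 CPM. Kcnk4 moved from 8.95 to 4.03 (1.66 to 11.8), Kcnv1 from 7.68 to 4.14 (2.59 to 6.95) and Kcnt2 from 3.19 to 1.63 (0.907 to 2.97). Kcng1 stayed wide at 7.98 (4.55 to 15.3) and Kcnj10 moved to 1.83 (1.73 to 1.94).

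**Figure D4:**
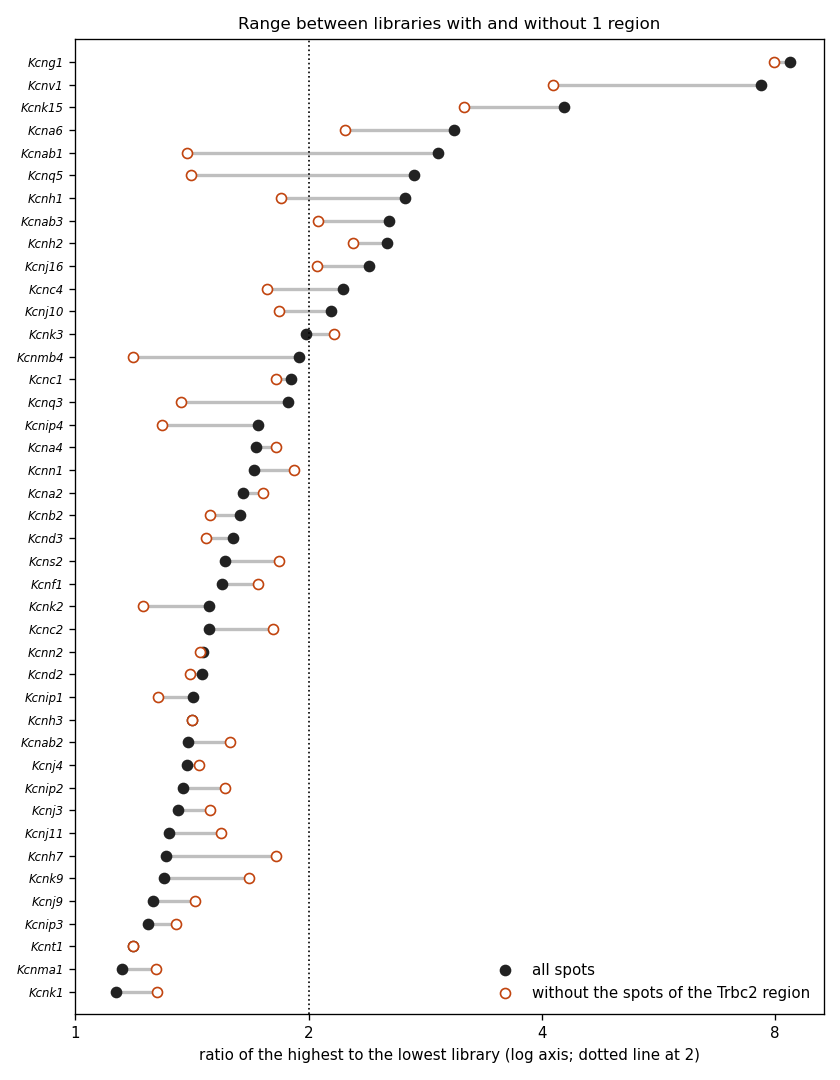
Highest library over lowest library, as a ratio on a log axis, for 42 of the 45 potassium channel genes with at least 500 UMIs, from all spots (filled) and without the spots of the Trbc2 region (open). The dotted line marks a ratio of 2. Kcnab1, Kcnq5, Kcnv1 and Kcnmb4 have the longest grey lines to the left, and Kcng1 remains at the right end under both.

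The Necab2 and Lgr6 regions had all 7 or 6 of the 7 granule cell markers higher than the rest in every library, summing to 5085 to 7274 CPM in the Necab2 region against 1980 to 3236 in the rest. In the Necab2 region 4 of 45 potassium channel genes were raised in all 4 libraries, against 0.556% of the genes that did not draw the regions and 2.61% of all genes of that depth, among them Kcnb2, Kcnh3 and Kcnf1. Kcnb2, which encodes the delayed rectifier Kv2.2, stood at 146, 123, 105 and 81.9 CPM against 29.7, 39.2, 23.6 and 23.0 in the rest of libraries 1 to 4. Kcnh3 stood at 259, 310.2, 306 and 289 CPM against 71.8, 97.7, 90.9 and 96.7. Within the region Kcnh3 had a ratio between libraries of 1.198 (0.869 to 1.65), which counting error alone could give. The Lgr6 region, with a median of 2322 UMIs per spot the shallowest, had 3 of 45 genes raised, Kcnb2 and Kcna4 among them, against 0.148% of the genes that did not draw the regions and 0.609% of all genes of that depth. Kcna4, which encodes the A-type channel Kv1.4, stood there at 43.3, 42.9 and 38.8 CPM against 20.3, 21.0 and 18.1 in libraries 1 to 3, with only 7 UMIs and an interval that includes 1 in library 3. Kcnk10 (TREK2) led the Necab2 region at lower counts, with log2 ratios of 1.67 to 2.36 on 6 to 16 UMIs.

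The Klhl30 region of libraries 1 and 2 and the Abi3bp region of libraries 3 and 4 both had high mitral and tufted cell markers, with 7 of 8 and 8 of 8 higher than in the rest. The markers summed to 6552 and 5642 CPM in the Klhl30 region and to 4276 and 4031 CPM in the Abi3bp region, with none at 0. Lmo3, a listed marker of forebrain excitatory neurons, was among the leading genes of the Abi3bp region. The part of either cell type in the levels there was not tested. Kcnk15 was raised in both regions. It stood at 66.8 and 58.3 CPM against 26.5 and 22.3 in the rest for the Klhl30 region, and at 22.7 and 17.1 against 9.44 and 5.83 for the Abi3bp region. The levels in the Abi3bp region of libraries 3 and 4 were thus no higher than 22.7 CPM, near or below those outside the Klhl30 region in libraries 1 and 2. Next in the Klhl30 region came Kcnab1 at 19.4 and 17.8 CPM against 11.2 and 6.93, on 60 and 21 UMIs, and Kcna2 at 255 and 248 CPM against 156 and 149.97, while Kcnc1 stood at 289 and 287 CPM against 202 and 202. Kcng1 was raised in the Abi3bp region, at 45.3 and 34.3 CPM against 14.8 in the rest of each library.

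In the Car9 region of libraries 3 and 4, all 8 reactive glia markers were higher than in the rest, summing to 3788 and 3760 CPM against 1861 and 1421. None of the 45 potassium channel genes of at least 500 UMIs was raised there in both libraries, against 0.635% of the genes that did not draw the regions. The highest of the 45 were Kcnj16 at 34.8 and 40.5 CPM against 16.3 and 21.3, Kcnk15 at 18.5 and 15.2 CPM against 10.9 and 7.24, and Kcnj10 at 226 and 259.9 CPM against 133 and 127. The levels of Kcnj10 in this region were still below the 313 and 286 CPM of libraries 1 and 2 as a whole. In the Mbp region Kcnj10 was higher than in the rest of all 4 libraries, with log2 ratios of 0.61 to 1.04. This region is also the highest in mitochondrial transcripts, 16.6% of its UMIs. As given above, its oligodendrocyte markers were higher than in the rest mainly in libraries 3 and 4. The part of oligodendrocytes in the level of Kcnj10 there was not tested.

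The Mmp12 region of libraries 3 and 4 had all 8 phagocyte markers higher than in the rest, summing to 4062 and 4283 CPM against 415 and 346. Here 22 of 45 potassium channel genes lay under 0.5-fold of the rest in both libraries, against 7.09% of the genes that did not draw the regions and 8.07% of all genes of that depth, a count chosen after the data were seen. Kcnma1 stood at 33.8 and 25.9 CPM against 70.7 and 69.1. Kcnn4, with 292 UMIs in all, lay outside these 45 genes. Among genes with at least 50 UMIs it had the highest ratio to the rest in its lower library. It stood at 38.2 and 38.1 CPM against 4.39 and 3.65, an 8.71-fold (6.01 to 12.8) and 10.4-fold (6.51 to 17.0) difference. Of its UMIs in these libraries, 65.9% and 62.5% came from this region. Kcnk5 (TASK2) stood at 21.5 and 15.2 CPM against 3.22 and 2.19, and Kcne4 at 12.3 and 9.91 CPM against 1.66 and 2.31. Kcnj10 was also above the rest, at 204 and 233 CPM against 134 and 133.

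In the Lcn11 region of libraries 1 and 2, 6 of 7 olfactory sensory axon markers and all 7 olfactory mucosa markers were higher. There 1 of 45 potassium channel genes of at least 500 UMIs was raised, against 2.83% of the genes that did not draw the regions. This gene, Kcnc4, stood at 60.9 and 53.6 CPM against 23.1 and 23.6 on 70 and 12 UMIs. Kcnn4 stood at 17.4 and 22.4 CPM against 3.21 and 3.20 there, on 20 and 5 UMIs. Kcnj13, which encodes the epithelial channel Kir7.1, led both this region and the Fmod region, where all 8 leptomeningeal markers were higher, at 19.6 and 14.4 CPM against 3.23 and 2.49 for the Fmod spots (libraries 3 and 4). In the Gal region of libraries 1 and 2, with 6 of 7 periglomerular markers higher, the leading genes had few UMIs, among them Kcnj12 at 18.1 and 15.2 CPM against 5.57 and 7.70 and Kcnmb2 at 8.77 and 10.1 CPM against 3.37 and 3.70. Such values rest on 2 to 101 UMIs per library and are given as levels only.

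Partner genes were followed over the 28 combinations of region and library, which share libraries and depth, so that coefficients describe and carry no p-value. Kcnj10 and Kcnj16 had Pearson r = 0.765 on log2 levels and Spearman rho = 0.785, and Kcnj16 was the nearest gene to Kcnj10 among the 45. Kcnd2 ran close to Dpp10 (r = 0.850) and Dpp6 (r = 0.831), both accessory proteins of Kv4 channels, but not to Kcnip4 (r = -0.116, rho = -0.176), which was high in the Trbc2 region. Kcnd3 and Kcnip1, a Kv4 pore and a KChIP gene, had r = 0.651 and rho = 0.674, and Kcnma1 and Kcnmb4 had r = 0.600. Kcnj11 and Abcc8, the subunits of the ATP-sensitive channel of neurons, had r = 0.221. For the pairs of Kcna1 with Kcna2, Kcnj3 with Kcnj6 and Kcnj8 with Abcc9, at least 1 partner had under 200 UMIs and no coefficient was computed. Over all 990 pairs of the 45 genes the median rho was 0.27. The nearest courses of all included Kcnf1 with Kcnj3 (rho = 0.943) and Kcnf1 with Kcnj4 (rho = 0.935), and the farthest from Kcnj10 was Kcnh3 (rho = -0.796).

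**Figure D5:**
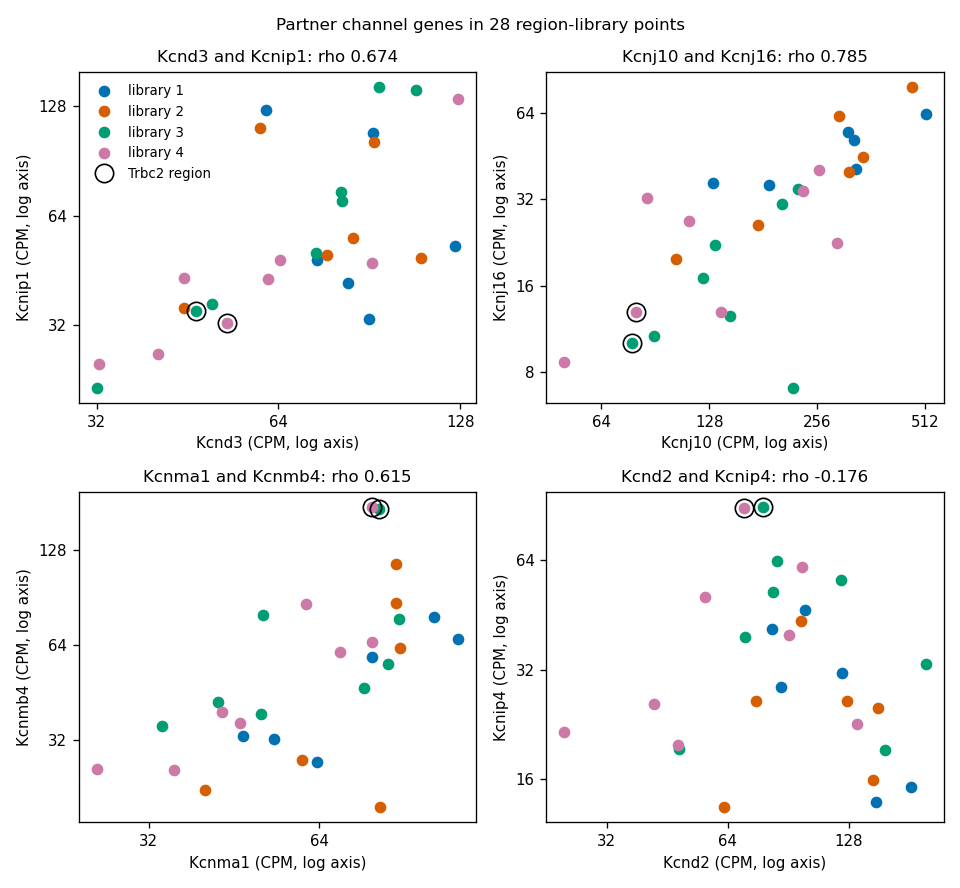
Levels (CPM, log axes) of 4 pairs of partner genes in the 28 combinations of region and library with at least 30 spots, coloured by library, with the Trbc2 region ringed. Kcnd3 and Kcnip1 (rho = 0.674) and Kcnj10 and Kcnj16 (rho = 0.785) run together, Kcnmb4 stands high against Kcnma1 in the ringed points, and Kcnd2 and Kcnip4 (rho = -0.176) show no common course.

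Across spots thinned to 2000 UMIs, none of the 79 genes reached a Spearman rho of 0.3 in size with any of 19 marker lists in 2 libraries, of 1501 relations computed. The highest was 0.30, for Kcnh3 with granule cell markers in library 2, and the lowest was -0.264, for Kcnh3 with mitral and tufted cell markers in library 2. At this depth a spot holds few UMIs of a given channel gene, so weak coefficients are not read as a lack of relation. The other genes of potassium handling were set beside the channel genes from lists chosen with earlier results known. Over 2-fold between libraries were 2 of 10 channel partner genes (Lrrc55 and Lgi1), 1 of 4 HCN genes (Hcn4), 2 of 13 genes of potassium transport (Fxyd1 and Fxyd7) and 0 of 13 sodium and calcium channel pore genes. Of all genes tested, 7.85% passed. These lists are short, and their counts are not read as a difference between gene classes. Hcn4, which encodes a channel of the hyperpolarisation-activated current, stood at 29.0, 27.4, 14.8 and 13.2 CPM, a ratio of 2.20 (1.79 to 2.71). Fxyd1 and Fxyd7, regulators of the sodium-potassium pump, were higher in libraries 3 and 4, with ratios of 2.81 (2.53 to 3.13) and 3.11 (2.89 to 3.36).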

How the data were processed

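Visium spots of olfactory bulb were analysed in 4 libraries. The deposited values are whole-number UMI counts per gene and spot in a single matrix (Space Ranger 1.3.1, per the file headers), with other deposited files giving gene and spot names. Per the submitters' processing notes the counts refer to GRCm39, which the matrix holds no coordinates to check, while sequences printed here are of GRCm38.p6. Nothing in the sources used here states the annotation, read filters or use of strand.

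The number ending each barcode gave the library. No measured value served to match libraries with mice, so the mice are not compared. Spots under 500 UMIs were set aside (97, with 0.068% of UMIs). CPM came from UMIs summed over spots. Levels carry exact Poisson intervals and ratios exact conditional binomial intervals, for counting error only. The depth of 5223890 to 13304973 UMIs makes 3 UMIs 0.225 to 0.574 CPM.

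To draw regions, each spot was scaled to 10000 UMIs, log1p-transformed and z-scored, 2000 variable genes without Kcn genes, listed, mitochondrial, ribosomal protein and haemoglobin genes were reduced to 30 components, and spots joined to 15 neighbours were clustered with Leiden at resolution 0.8 (scanpy 1.11.5, igraph 0.11.9, scikit-learn 1.9.0, numpy 2.4.6, scipy 1.17.1, Python 3.11.15). Unnamed gene models and mitochondrial genes were passed over in naming regions, a choice made after seeing them. Doublet calling does not apply to spots. The ratio and its call were tested on simulated data.

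Named genes were the one with the most UMIs in each subfamily, the 15 with the widest ratio among those with at least 200 UMIs and 3 per library, the 4 with the highest value in the lowest library of each region, the partner pairs, and genes of the lists. Others are named as counts, thresholds or contrasts and were chosen after their values were seen. The channel genes, lists, pairs and rules were all chosen with earlier results of these data known. The name table held all 99 gene IDs with the same symbol. Alternatives covered minimum counts, library size, spot depth, region settings, fold, thinning and leaving out each library. Some genes are not reported here and are left out of the figures. Shares over all genes of that depth were added after the data were seen.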

Additional observations from a re-analysis of the deposited data

How the results depend on the processing

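Of the counts of channel genes over 2-fold between libraries, 12 in all, the count was 6 of 33 with the highest minimum of UMIs per gene tried, where 6.41% of all genes passed, and 17 of 60 with a minimum of 200, where 10.9% did. Under the other settings it ran from 8, without the Trbc2 region (6.94% of all genes), to 15, in regions held by every library only (22.5%), and leaving out each library in turn gave 11 to 12. Asking for a lower interval bound over 2, also chosen after the data were seen, gave 11. The share of all genes was not computed for that bound, so this count is not set against them. Genes raised in a region, 19 in all, numbered 34 at a fold of 1.5, where 32.8% of the genes that did not draw the regions passed, and 5 at a fold of 3, where 4.29% did, and leaving out each library in turn gave 7 to 20, with 10 without library 3 (4.99% of those genes) and 7 without library 4 (4.68%), since the Trbc2, Abi3bp, Car9, Fmod and Mmp12 regions then had fewer than 2 libraries. With other clustering, spot or UMI settings it ran from 17 to 26, with 10.8% to 16.6% of those genes. Genes correlated with a marker list, 0 in all, numbered 18 without thinning and 3 at a rho of 0.2. Without thinning, Kcna2 with mitral and tufted cell markers had rho = 0.539, 0.557, 0.389 and 0.371, and Kcnj10 with astrocyte markers 0.414, 0.442, 0.350 and 0.375 in libraries 1 to 4, and the cause of the loss on thinning was not tested. Of ratios of single named genes under each alternative, 167 stayed within the counting interval of the main ratio and 25 fell outside it. In regions held by every library only, which pools the Mbp and Necab2 regions, Kcnk15 had a ratio of 7.19, Kcnj16 5.75 and Kcnv1 1.69. The Mbp region held 7.47%, 5.85%, 2.26% and 3.25% of the UMIs of libraries 1 to 4. The Necab2 region held 2.47%, 4.81%, 7.44% and 6.02%. These ratios and the count of 15 above thus compare different mixes of regions. In the Mbp and Necab2 regions, Kcnk15 had 3 and 1 UMIs in library 4, and Kcnj16 had 2 and 10 in library 3. Median-of-ratios scaling shifted levels by at most 0.02 log2 units. No paired analysis was possible because the libraries carry no label of mouse or replicate. Counts limit the genes under 200 UMIs, whose regional values rest on a few UMIs, and 1 mouse per condition limits every comparison.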

Other observations

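Over the 45 channel genes, libraries 1 and 2 differed by a median of 0.13 log2 units and libraries 3 and 4 by 0.10, while the 4 other pairs differed by 0.54 to 0.58. Over all genes of that depth these medians were 0.10, 0.08 and 0.19 to 0.21. In 27 of the 45 genes libraries 3 and 4 both lay below libraries 1 and 2, in 12 both lay above, and in 6 neither held. The shares over all genes tested were 35.4% and 34.9%. The values thus fall into separate pairs of libraries, and no label says which library came from which mouse.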
